A study of Mus musculus with 6 samples.

Results

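The C1q/TNF-related proteins (CTRPs), encoded by the C1qtnf genes, are a family of secreted relatives of adiponectin. The family was taken as 8 named mouse genes, C1qtnf1 to C1qtnf7 and C1qtnf12. Of these, 7 had a probe set that carries exactly 1 gene symbol, out of 19935 genes measured that way, and C1qtnf5 did not. The family was selected on the measured difference of C1qtnf3 between the genotypes compared here, which is large. The genotype differences of the family members are therefore given as descriptions, without a p-value.

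The data are 2 arrays of cells from Y1KO mice, which lack the Y1 receptor for neuropeptide Y, and 4 arrays of cells from WT mice. The mice of both groups were male and carried a green fluorescent protein (GFP) transgene driven by a 3.6-kb fragment of the rat alpha1(I)-collagen promoter. Stromal cells of the femur and tibia marrow were cultured for 7 days, and the GFP-positive cells were sorted and their RNA was hybridised to Affymetrix whole-transcript arrays. The labels give neither the age of the mice nor whether 1 array is 1 animal, nor the cell type in which Y1 was deleted, so the spread between arrays may in part be technical.

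Correlations over all genes were 0.996 between the Y1KO arrays and 0.991 to 0.996 among the WT arrays, against 0.976 to 0.987 across genotypes. The transcript of the deleted receptor, Npy1r, lay at percentile 8.41 of all genes in Y1KO and 9.42 in WT, too dim to check the genotype labels. Col1a1, the mouse gene of the collagen whose rat promoter drives the sorting reporter, averaged 13.60 ± 0.03 (SD, n = 2) in Y1KO and 13.42 ± 0.05 (SD, n = 4) in WT on the log2 scale, near the top of the range in both. The 7 measured osteoblast markers, among them Col1a1, Dmp1 and Ibsp, all lay above the median gene in WT. By limma 0 of them passed at an adjusted p under 0.05 between genotypes (4 at an unadjusted p under 0.05). Over all genes 12.7% passed.

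A typical CTRP has a signal peptide, a collagen-like stretch and a globular C1q domain at its end, whose fold resembles that of tumour necrosis factor. The C1q domains assemble into trimers, and the trimers often join into larger complexes that circulate or stay in the matrix. Several CTRPs act on glucose and lipid metabolism, often through AMP-activated protein kinase (AMPK), and some act in cartilage, vessels or immune regulation.

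C1qtnf3 encodes CTRP3, also known as cartducin, a protein first studied in growth plate cartilage and later as an adipokine that lowers glucose output from liver. Its log2 expression was 7.96 and 8.25 in Y1KO replicates 1 and 2, against 6.83, 6.17, 5.93 and 5.67 in WT replicates 1 to 4. Both Y1KO arrays lay above every WT array, with a gap of 1.12 between the lower Y1KO array and the highest WT array. The means were 8.10 ± 0.21 (SD, n = 2) in Y1KO and 6.15 ± 0.50 (SD, n = 4) in WT. The difference of 1.95 (SE 0.27) corresponds to 3.88-fold higher expression in Y1KO, and 5 of the 19935 genes, C1qtnf3 included, had a difference at least that high. The signal moved to percentile 83.5 of all genes in Y1KO, against percentile 55.8 in WT.

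The WT arrays also differed among themselves for C1qtnf3. Their SD of 0.50 was at percentile 98.8 of the WT SDs of all genes, and WT replicate 1 was 2.24-fold above WT replicate 4. Without WT replicate 1 the difference was 2.18, and without WT replicate 4 it was 1.80. The gap between the groups, 1.12, was thus close to the range among the WT arrays, 1.16. Leaving out 1 of the Y1KO arrays gave differences of 2.10 (replicate 1 left out) and 1.81 (replicate 2 left out).

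**Figure D1:**
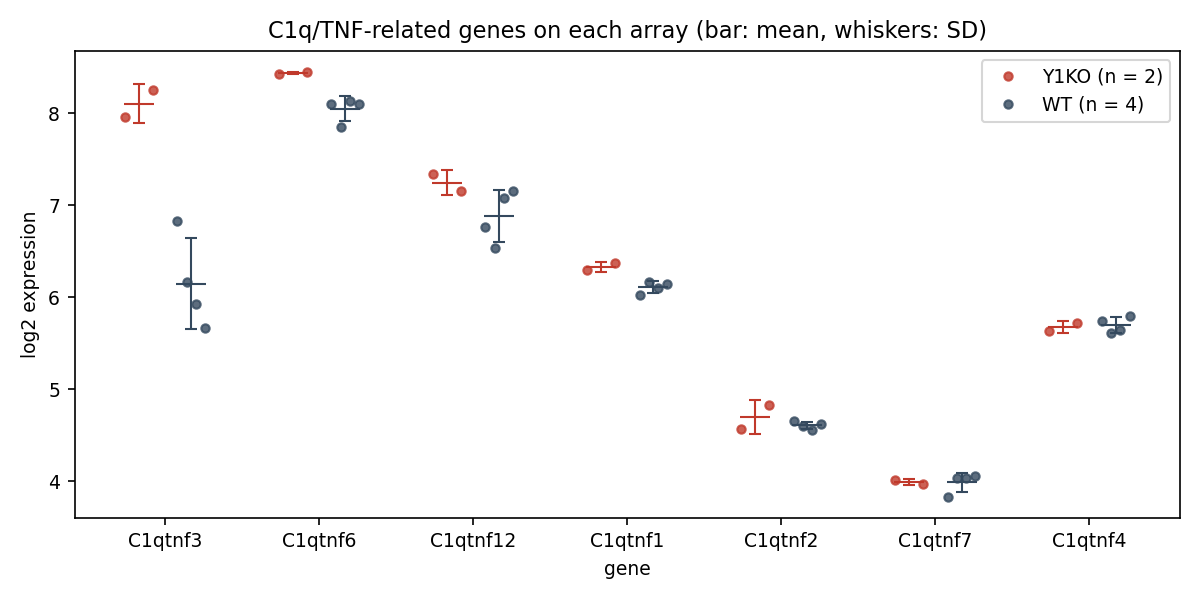
Log2 expression of the 7 measured C1q/TNF-related genes (horizontal axis) on each array, with Y1KO in red on the left and WT in dark blue on the right of each gene. Short bars are means and whiskers are SDs (n = 2 Y1KO, n = 4 WT). For C1qtnf3 the Y1KO arrays read 7.96 and 8.25, and the highest WT array reads 6.83.

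C1qtnf6 encodes CTRP6, which dampens the alternative pathway of complement and is known as a brake on joint inflammation in mice. It read 8.43 and 8.45 in the Y1KO arrays, against 8.11, 7.85, 8.14 and 8.11 in WT replicates 1 to 4. The groups did not overlap, and WT replicate 2 was the lowest array. The means were 8.44 ± 0.01 (SD, n = 2) in Y1KO and 8.05 ± 0.14 (SD, n = 4) in WT, a difference of 0.39 (SE 0.11), or 1.31-fold. Its signal was at percentile 87.0 of all genes in Y1KO and 82.7 in WT. The difference was 0.32 without WT replicate 2.

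The stretches around the annotated start sites of C1qtnf3 and C1qtnf6 are shown because these members had the largest differences. Both are from RefSeq (GRCm38.p6) and run from 250 bases before to 50 bases after the start, C1qtnf3 at chr15:10952082-10952381 on the + strand and C1qtnf6 at chr15:78529602-78529901 on the - strand. Capitals mark matches to 6 motifs, searched on both strands.
C1qtnf3: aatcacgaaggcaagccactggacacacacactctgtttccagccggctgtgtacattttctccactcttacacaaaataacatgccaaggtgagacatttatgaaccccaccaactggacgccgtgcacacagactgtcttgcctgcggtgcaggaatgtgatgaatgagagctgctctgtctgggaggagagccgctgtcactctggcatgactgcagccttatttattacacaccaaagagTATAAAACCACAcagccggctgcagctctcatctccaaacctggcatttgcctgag
C1qtnf6: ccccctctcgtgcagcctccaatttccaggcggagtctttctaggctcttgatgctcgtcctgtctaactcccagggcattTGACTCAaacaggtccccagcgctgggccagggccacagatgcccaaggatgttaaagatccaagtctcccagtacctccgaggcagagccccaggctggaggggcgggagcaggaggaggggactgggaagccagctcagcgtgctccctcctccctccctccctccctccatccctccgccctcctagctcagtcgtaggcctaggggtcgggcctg
The motifs were the full and short cAMP response elements TGACGTCA and TGACG (the short one lies within the full one), the AP-1 site TGANTCA, the TATA box TATAAA, the Runx site TGTGGT and the E-box CACGTG. The C1qtnf3 window held a TATA box, found in 13.6% of all 32851 windows, that ends 1 base before the annotated start. A Runx site, read on the other strand as ACCACA and found in 16.8% of all windows, follows it directly. The C1qtnf6 window held an AP-1 site, found in 7.81% of all windows, 169 to 163 bases before the start. The full cAMP response element, found in 1.79% of all windows, was in neither window, nor were these letters in the windows of C1qtnf2, C1qtnf5 and C1qtnf7. The short element, found in 20.8% of all windows, occurred in C1qtnf2 and C1qtnf7. The Runx site also occurred in C1qtnf5, and the E-box, found in 7.15% of all windows, in C1qtnf2. Windows were matched for 5 of the 8 genes. C1qtnf1, C1qtnf4 and C1qtnf12 were not matched.

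C1qtnf1 encodes CTRP1, a metabolic and vascular CTRP that can bind collagen. It read 6.30 and 6.37 in the Y1KO arrays, against 6.02, 6.17, 6.10 and 6.14 in the WT arrays. The groups did not overlap, but the difference was small, at 0.22 (SE 0.09), or 1.17-fold. Its WT arrays were close together, with an SD of 0.06 at percentile 13.8 of all genes.

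C1qtnf12 encodes CTRP12, or adipolin, an insulin-sensitising adipokine that the protease furin cleaves. It read 7.34 and 7.15 in the Y1KO arrays, against 6.76, 6.54, 7.08 and 7.16 in the WT arrays. The lower Y1KO array lay just below the highest WT array, so the groups overlapped. The difference was 0.36 (SE 0.17), about as large as for C1qtnf6 but with a wider WT spread, an SD of 0.29 at percentile 93.6. With the replicate number as a block the difference was 0.60. That fit compares same-numbered arrays only. The WT values 7.08 and 7.16, on arrays with no Y1KO array of that number, do not enter its difference.

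The remaining members were nearly level between genotypes, and their arrays overlapped. C1qtnf2 encodes CTRP2, which stimulates AMPK in muscle cells, and read 4.57 and 4.83 in Y1KO and 4.56 to 4.66 in WT, a difference of 0.09 (SE 0.10). C1qtnf7, its close paralog, read 4.01 and 3.97 in Y1KO and 3.84 to 4.06 in WT, a difference of 0.00 (SE 0.10). C1qtnf4 encodes CTRP4, which has a pair of C1q domains and no collagen-like stretch, and read 5.64 and 5.73 in Y1KO and 5.62 to 5.80 in WT, a difference of -0.02 (SE 0.09). C1qtnf2 and C1qtnf7 lay at percentiles 33.5 and 23.3 of all genes in WT, where an array can understate a change. With these SEs the 95% intervals ran from -0.13 to 0.32 for C1qtnf2, from -0.22 to 0.22 for C1qtnf7 and from -0.23 to 0.19 for C1qtnf4.

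C1qtnf5 shares its transcription unit with Mfrp, a membrane protein gene of the eye, and a mutation in the human gene causes a late-onset retinal degeneration. The one probe set that names it also names Mfrp, so its values cannot be given to either gene. That probe set read 6.41 and 6.39 in Y1KO, against 6.47, 6.43, 6.32 and 6.55 in WT, with overlapping groups and a difference of -0.04.

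The differences of the members were set against those of all genes. Of the 7 measured members, 2 were past the limma threshold (adjusted p under 0.05 over all genes), both higher in Y1KO, and 5 were not. Among all genes 12.7% were past it, 6.1% higher and 6.64% lower in Y1KO, and since C1qtnf3 chose the family nothing is read from the count. C1qtnf3 left the count without variance moderation or without Y1KO replicate 2, and C1qtnf6 left it in 8 of 15 alternative fits, among them those without Y1KO replicate 1 or 2 and without WT replicate 1, 2 or 4. In 3 of the 7 the groups did not overlap, each with Y1KO above, where 34.8% of all genes did not overlap, 17.5% with Y1KO above and 17.3% with Y1KO below. The median difference was 0.22 over the members and 0.01 over all genes. The differences spanned -0.02 to 1.95, and the value next below C1qtnf3 was the 0.39 of C1qtnf6, so the family did not share the size of the C1qtnf3 difference.

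**Figure D2:**
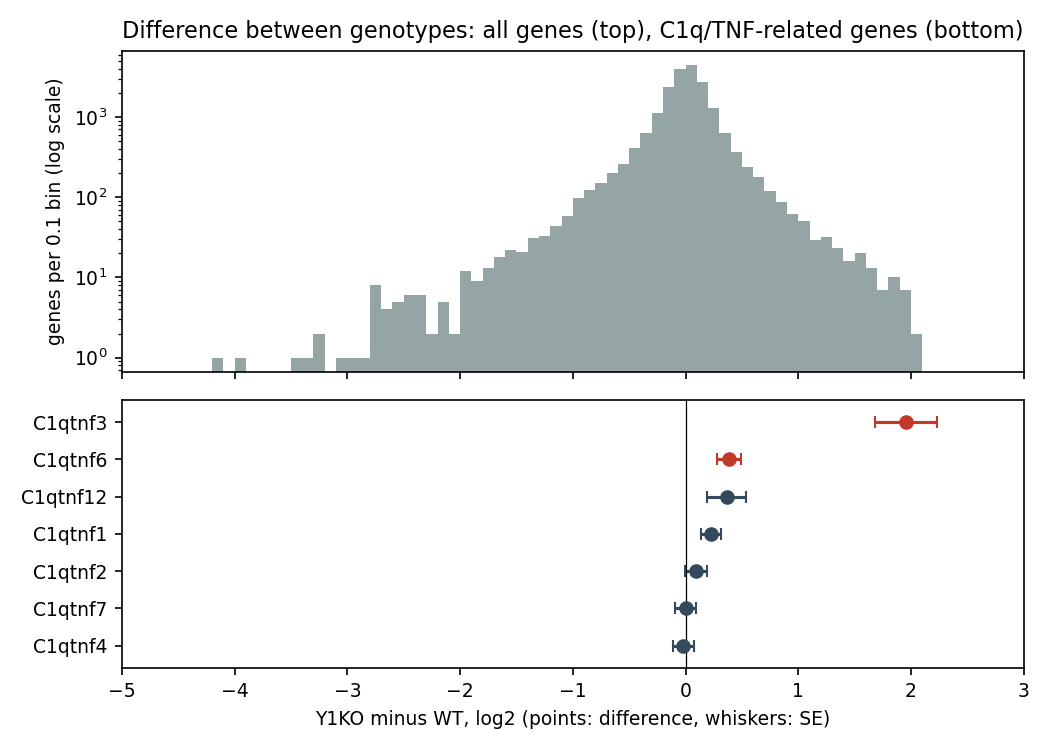
Top, number of genes (log scale) per 0.1-wide bin of the difference Y1KO minus WT in log2 expression, over 19935 genes. Bottom, the difference of each measured C1q/TNF-related gene on the same axis with its SE, in red where past the limma threshold and in dark blue where not. C1qtnf3, at 1.95, lies in the far right tail, and the other members lie between -0.02 and 0.39.

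The genes with profiles most like that of C1qtnf3 were taken as those with the smallest Euclidean distance over the 6 arrays, after each gene was centred on its WT mean. They were Nt5e, an ectoenzyme that makes adenosine (distance 0.62, Pearson r = 0.97), Nell2, a secreted protein of the nervous system (0.80, r = 0.98), Nebl, an actin-binding protein (0.83, r = 0.94), Dchs1, a large cadherin (0.90, r = 0.94), and Htr2a, a serotonin receptor (0.91, r = 0.97). Nebl has 2 probe sets, and its profile is that of the brighter one, with a difference of 1.77. With the mean of its probe sets the difference was 1.09. The correlations are over 6 arrays that fall into 2 genotypes and describe mainly that step. Nt5e was the closest, at 9.03 and 9.20 in Y1KO against 7.51, 7.13, 7.08 and 7.19 in WT. In WT replicate 1 each of these 5 genes and C1qtnf3 had its highest WT value, with Htr2a at 7.33 there against 6.51 to 6.58 on the other WT arrays. Since the 5 were chosen for closeness to C1qtnf3 on these same 6 arrays, nothing is read from that shared high value. C1qtnf4 had the lowest difference of the members, and the gene closest to its flat profile was Slc6a13, a transporter gene, at a distance of 0.03.

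Amacr, which encodes a racemase of branched fatty acids, is the next protein-coding gene after C1qtnf3 on the chromosome. It read 6.97 and 6.80 in Y1KO, against 6.79, 6.50, 6.15 and 6.54 in WT. The Y1KO arrays lay above all WT arrays by a small margin. The difference was 0.39 (SE 0.16, limma adjusted p = 0.171), well under that of C1qtnf3, and the difference between these differences was not tested.

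**Figure D3:**
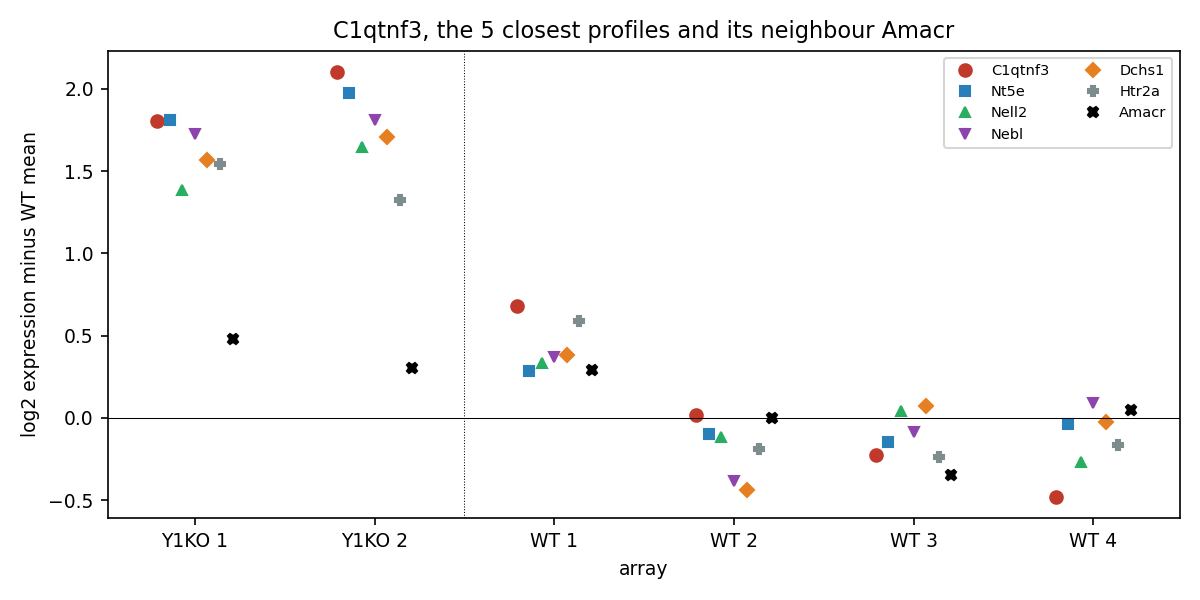
Log2 expression minus the WT mean of each gene on each array (Y1KO left, WT right of the dotted line) for C1qtnf3, the 5 genes closest to it and its neighbour Amacr. C1qtnf3 and the 5 closest genes lie well above 1 in both Y1KO arrays, Amacr stays below 0.5, and WT replicate 1 is the highest WT array for all 7. The 5 were chosen for closeness to C1qtnf3 on these same arrays. For Nebl the brighter of its 2 probe sets is drawn.

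Another list held 23 other measured genes from families with a C1q domain, among them Emilin3, which lacks the domain. Of these, 2 rose and 2 fell in Y1KO by limma and 19 did not pass, where 6.1% of all genes rose and 6.64% fell. The median difference was 0.06, against 0.01 over all genes. Col8a1, a short-chain collagen with a C1q domain, fell by 1.15 (SE 0.09, limma adjusted p = 0.000324), with 10.45 and 10.54 in Y1KO against 11.53 to 11.73 in WT. Col10a1, the hypertrophic cartilage collagen, fell by 0.70 (SE 0.11, limma adjusted p = 0.005). C1qc and C1qa, chains of complement C1q that macrophages make, rose by 0.94 (SE 0.21, limma adjusted p = 0.0221) and 0.58 (SE 0.12, limma adjusted p = 0.0176). C1qb, the remaining chain, differed by 0.44 (SE 0.16, limma adjusted p = 0.113) and did not pass. The calls of Col10a1, C1qa and C1qc were lost without Y1KO replicate 2, where C1qa differed by 0.37 and C1qc by 0.47. The call of C1qc was also lost without WT replicate 4, and its difference was 1.41 without Y1KO replicate 1. Adipoq, the adipokine adiponectin, read 4.14 and 4.40 in Y1KO and 4.92, 4.56, 6.51 and 4.83 in WT, a difference of -0.93 (limma adjusted p = 0.266) that was -0.50 without WT replicate 3. C1qtnf9, the closest CTRP relative of adiponectin, was dim, at percentile 13.1 in Y1KO and 12.4 in WT, with a difference of 0.08 (limma adjusted p = 0.694).

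Of 8 measured genes for receptors, binding partners and processing of the family, 2 passed by limma, both higher in Y1KO, and 6 did not, where 6.1% of all genes rose. The median was 0.16, against 0.01 over all genes, and in 4 of the 8 the groups did not overlap, against 34.8% of all genes. Furin, the protease that cleaves adipolin, rose by 0.48 (SE 0.09, limma adjusted p = 0.0102), with 9.39 and 9.47 in Y1KO against 9.04, 8.99, 8.86 and 8.91 in WT. Adipor1, an adiponectin receptor, rose by 0.33 (SE 0.09, limma adjusted p = 0.04), with 9.10 and 9.23 in Y1KO against 8.76 to 8.89 in WT. Its call was lost with quantile normalization and when any 1 of the 6 arrays was left out. The call of Furin was lost without either Y1KO array. With the replicate number as a block neither passed. The other adiponectin receptor gene, Adipor2, differed by -0.07 (limma adjusted p = 0.777). T-cadherin, encoded by Cdh13, which binds adiponectin, differed by 0.40 (limma adjusted p = 0.0597) and was past the threshold with quantile normalization, median centring or the filter at the 40th percentile. The relaxin receptor gene Rxfp1, which human CTRP8 is reported to engage, differed by 0.28 at percentile 8.6 in WT (limma adjusted p = 0.215).

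Of 18 measured genes of AMPK and adiponectin-type signalling, 3 passed by limma, all lower in Y1KO, and 15 did not, where 6.64% of all genes fell. The median was -0.15, against 0.01 over all genes. Prkab2, a regulatory subunit of AMPK, fell by 1.10 (SE 0.16, limma adjusted p = 0.00324), with 6.53 and 6.12 in Y1KO against 7.15, 7.50, 7.65 and 7.41 in WT. Prkaa1, a catalytic subunit, fell by 0.44 (SE 0.11, limma adjusted p = 0.0266), and Cpt1a, which brings fatty acids into mitochondria, by 0.57 (SE 0.13, limma adjusted p = 0.0226). Camkk2, a kinase that activates AMPK, differed by -0.24 (limma adjusted p = 0.19). The calls of Prkaa1 and Cpt1a were lost without either Y1KO array, that of Prkaa1 also without WT replicate 1, and that of Prkab2 without Y1KO replicate 2.

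In a list built around the alternative complement pathway, on which CTRP6 acts, 2 of 9 measured genes passed by limma, both higher in Y1KO. Another 7 did not pass, and 6.1% of all genes rose. The list also holds cell-surface inhibitors and receptors for complement fragments, and the 2 that passed are of these kinds. The median was 0.23, against 0.01 over all genes, and the filter at the 40th percentile leaves out both genes that passed. The genes that rose were Cd55, a cell-surface inhibitor of the pathway, by 0.87 (SE 0.16, limma adjusted p = 0.00844), and C3ar1, a receptor for a complement fragment, by 0.85 (SE 0.19, limma adjusted p = 0.0187). Cd55 lay at percentile 16.7 in Y1KO and 6.49 in WT, so its signal was dim in both. C5ar1, another fragment receptor, differed by 0.43 (limma adjusted p = 0.087) and Cfb, a protease of the pathway, by -0.41 (limma adjusted p = 0.225). The call of C3ar1 was lost without either Y1KO array, and that of Cd55 without Y1KO replicate 2, where its difference was 0.55, against 1.20 without Y1KO replicate 1.

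**Figure D4:**
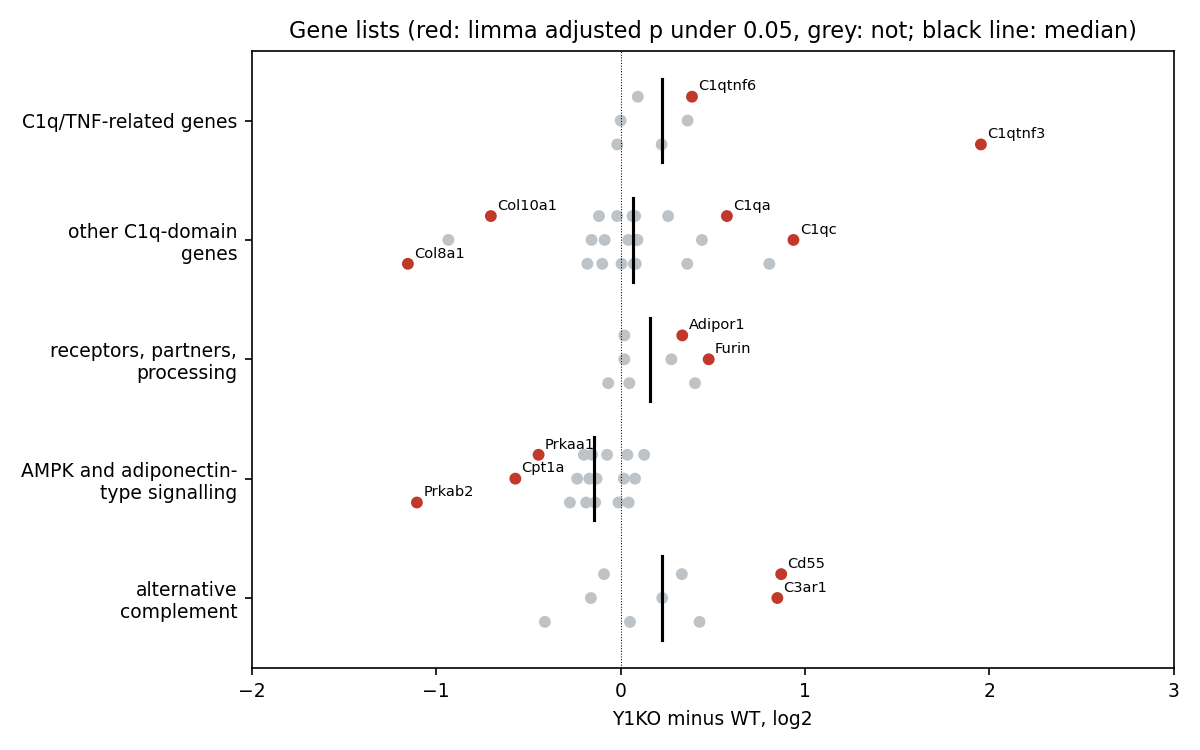
Difference Y1KO minus WT in log2 expression (horizontal axis) of each measured gene in 5 lists, with red points for genes past the limma threshold, grey points for the rest and a black line at each list's median. Vertical scatter within a list separates points and has no scale. C1qtnf3, at 1.95, lies farthest right, and the medians run from -0.15 for the AMPK list to 0.23 for the complement list.

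Markers of some other cell types, though not of all, also differed between Y1KO and WT. Of 10 macrophage markers 6 passed by limma, all higher in Y1KO, where 6.1% of all genes rose. The 4 that did not pass were Ptprc at 0.15, Fcgr1 at 0.07, Itgam at -0.0016 and Cd14 at -0.07. In WT 8 of the 10 lay below the median gene. Relative to the WT mean the list's mean was 0.26 and 0.66 in Y1KO replicates 1 and 2, against -0.12 to 0.06 in WT. Adgre1 rose by 0.81 (limma adjusted p = 0.00448) and Csf1r by 0.57 (limma adjusted p = 0.0236), both without their calls when Y1KO replicate 2 was left out, where Csf1r differed by 0.36. Csf1r also lost its call without WT replicate 1 or 4. Of 10 smooth muscle and pericyte markers 8 passed, all lower in Y1KO, where 6.64% of all genes fell. The list means were -1.04 and -1.14 in Y1KO, against -0.20 to 0.15 in WT. Des, in the same list, went the other way, at 0.52 (limma adjusted p = 0.0772), with both Y1KO arrays above all WT arrays. Myl9 and Mylk fell by 1.60 and 1.32 (limma adjusted p = 0.000276 for each).

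Of 9 adipocyte markers 4 passed, all lower in Y1KO, where 6.64% of all genes fell. The list means were -0.96 and -0.91 in Y1KO, against -0.15 to 0.21 in WT. Lpl fell by 2.71 (limma adjusted p = 0.000171) and Pparg by 1.45 (limma adjusted p = 0.00229). Plin1, a lipid droplet coat gene of mature fat cells, was level at -0.03 and lay at percentile 44.9 in WT. Of 10 chondrocyte markers 2 rose and 1 fell, where 6.1% of all genes rose and 6.64% fell. The list means were 0.12 and 0.20 in Y1KO, against -0.16 to 0.20 in WT. Hapln1, a link protein gene, rose by 1.34 (limma adjusted p = 0.00529), while Col2a1, the main cartilage collagen, fell by 1.59 (limma adjusted p = 0.00118). Without Y1KO replicate 2 the call of Hapln1 was lost. Of 8 endothelial markers 0 passed by limma (0 also at an unadjusted p under 0.05), where 12.7% of all genes passed. Kdr was at 0.12 and Pecam1 at -0.07.

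Among the osteoblast markers, Dmp1, a matrix gene of late osteoblasts and osteocytes, had the smallest p. It read 11.79 and 11.96 in Y1KO against 10.07, 8.85, 11.19 and 10.74 in WT, a difference of 1.66 (SE 0.53, limma adjusted p = 0.0789). Dmp1 passed with array weights or the replicate block, and without WT replicate 2 or 3. With trend and robust variance moderation its limma adjusted p was 0.217, and without moderation it did not pass either. Ibsp, a bone sialoprotein gene, differed by 0.47 (limma adjusted p = 0.109). The osteoblast list mean was 0.62 and 0.73 in Y1KO, against -0.04, -0.60, 0.36 and 0.27 in WT replicates 1 to 4. Differences of the 7 osteoblast genes ran from 0.18 to 1.66. The groups did not overlap in 6 of them, against 34.8% of all genes. The part of these cell types in the C1qtnf3 difference was not tested, and in sorted bulk cells a change in cell numbers cannot be told apart from a change in RNA per cell.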

How the data were processed

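Per the submitters' processing notes, RMA and limma were used, with no versions, settings or order. The sources used here name no genome build and no probe annotation of theirs. The deposited log2 values of 28815 probe sets on 6 arrays had medians between 5.3 and 5.37, and were used as they stand. Precision is limited by the number of arrays (2 Y1KO, 4 WT). Gene names came from the platform annotation, which can be old: 21780 had 1 symbol, 1605 several and 5430 none. For the 998 genes with several probe sets the one with the highest mean was used, and 19853 of 19935 genes matched RefSeq by identifier.

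Y1KO was compared with WT by limma 3.58.1 in R 4.3.3 (lmFit, eBayes), two-sided, with Benjamini-Hochberg adjustment over 19935 genes and a threshold of adjusted p under 0.05. SEs are those of this fit. The script was tested on simulated data. The members, lists and tests were chosen with earlier results of these data known. Named genes were all members, the 4 of smallest p in each list that is not a marker list, the 2 of smallest p in each marker list, a few fixed genes and the 5 profiles closest to C1qtnf3. Alternatives were other normalizations, a filter at the 40th percentile, other uses of probe sets, other variance settings, each array left out, and the replicate number as a block. In the block fit, WT arrays with no Y1KO array of the same number do not enter the differences. Same-numbered arrays deviated from their group means with correlations of 0.01 and -0.20, so the numbers were not taken as pairs.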

Additional observations from a re-analysis of the deposited data

Results flagged for a closer look

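Of 48 named genes, 5 had 1 WT array set apart from the other 3 by Dixon's test at the 95% level, where chance gives about 1 group in 20. Among the members, C1qtnf6 was lowest in WT replicate 2, at 7.85, and C1qtnf7 in WT replicate 1, at 3.84. Ibsp was lowest in WT replicate 2, at 12.34, and C1qa highest there, at 5.98. Htr2a, chosen for its closeness to C1qtnf3 on the same arrays, was highest in WT replicate 1, at 7.33.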

How the results depend on the processing

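Across 15 alternative fits the C1qtnf3 difference ran from 1.60 (replicate block) to 2.18 (without WT replicate 1). These fits use the same arrays on which C1qtnf3 was chosen, so they are no independent support for its difference. Over all genes, calls numbered 2541, 344 without variance moderation and 487 to 2462 with 1 array left out. The 2 members past the threshold became 1 with quantile normalization, 0 without moderation and 0 to 2 with 1 array left out. Without moderation the other C1q-domain list had 1 call, and the receptor, AMPK and complement lists 0. With 1 array left out these 4 lists had 1 to 4, 0 to 1, 0 to 3 and 0 to 3 calls. The complement list had 0 calls with the 40th-percentile filter, which leaves out C1qtnf2 and C1qtnf7 too. The receptor list had 0 with the replicate block, which moved no other of these counts by over 1.5 times. It took C1qtnf6 outside the threshold and C1qtnf12, Dmp1 and Ibsp inside. The WT arrays with no Y1KO array of the same number do not enter the differences of that fit.

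Signs turned only for differences near 0. For C1qtnf4 the difference was 0.0274 with quantile normalization, 0.006 with median centring, 0.00395 with the block, and -0.0635 to 0.027 with 1 array left out. For C1qtnf7 it was -0.0126 with quantile normalization and -0.0514 to 0.0233 with 1 array left out. With 1 array left out, C1qtnf2 ran from -0.0381 to 0.225, C1qtnf9 from -0.0271 to 0.192, Adipor2 from -0.15 to 0.0156, Plin1 from -0.100 to 0.106, Pecam1 from -0.17 to 0.0373 and Slc6a13 from -0.0638 to 0.0434. Plin1 and Pecam1 were 0.139 and 0.122 with the block, and Slc6a13 was 0.0141 with median centring and 0.0188 with the block. The causes were not tested.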
